A study of Mus musculus with 16 samples.

Results

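Light zone (LZ) germinal centre B cells were compared with dark zone (DZ) germinal centre B cells of mice given an isotype control antibody, which is not directed against CD40. The comparison takes the isotype libraries by their labels, 8 of the 16 libraries of the series, and covers all genes of the deposited UMI count table. They are 4 libraries of LZ germinal centre B cells (IsoCtrl_4h_LZ) and 4 of DZ germinal centre B cells (IsoCtrl_4h_DZ), from lymph nodes of WT mice 4 h after the isotype antibody. The other 8 libraries are LZ and DZ cells 4 h after an anti-CD40 antibody given in vivo, 4 of each. They enter the gene filter, the scaling factors, the shared estimate of spread, the test of the libraries numbered 4 and 1 closing comparison. Strain, age, immunization, antibody dose, sorting gates and the number of mice behind a library are not in the labels, so the p-values measure the spread between these libraries, part of which may be technical. Each value below is the number of unique molecular identifiers (UMI, molecules tagged at reverse transcription) of a gene relative to the library total, scaled with TMM factors and written as CPM. Since the libraries are bulk RNA, fewer cells expressing a gene and less RNA per cell cannot be told apart.

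Germinal centres are the sites in lymphoid follicles where activated B cells improve their antibodies. In the DZ, B cells divide and mutate their antibody genes. In the LZ they capture antigen from follicular dendritic cells through the B cell receptor, present it to T follicular helper cells and receive help through the receptor CD40, which signals through TRAF adaptors to the transcription factors of the NF-kB family. Cells that receive help express Myc and return to the DZ. The 2 populations are usually told apart by surface proteins, CD83 and CD86 being higher on LZ cells and the chemokine receptor CXCR4 on DZ cells.

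The LZ libraries held 718158, 623268, 527241 and 597833 UMI and the DZ libraries 1473415, 987318, 971547 and 767736 UMI, so every LZ library was shallower than every DZ library (exact permutation test, two-sided p = 0.0286, the smallest that 4 against 4 allows, 0.0686 adjusted over 12 library measures). With all libraries thinned to the shallowest, 109 genes differed between the zones, against 152 at full depth. The libraries numbered 4 stood apart in both zones: the first principal component of the 8 isotype libraries (49.6% of the variance) separated them from the rest, and the next (18.7%) separated LZ from DZ. Over all 16 libraries, with the group in the model, 2451 of 6824 tested genes differed between the libraries numbered 4 and the others. Of the 152 zone genes 28 were among them. The zone fit had no term for this shift, so the 28 do not measure how far it reaches into the zone calls. Leaving out all libraries numbered 4 gave 212 zone genes, of which 131 were shared with the 152 in direction. What the number 4 stands for is not in the labels.

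Markers of other cells were few. The table lists 4 of 20 T cell markers and leaves Cd3e, Cd3d, Cd3g, Cd4 and Cd8a unlisted. It lists 9 of 27 myeloid and dendritic markers, without Csf1r or Itgax and with Lyz2 at 12 UMI over the LZ and 22 UMI over the DZ libraries, and 5 of 18 stromal and follicular dendritic markers, without Col1a1 or Fdcsp. Among the listed stromal markers Mfge8 had 74, 3, 6 and 7 UMI in the LZ libraries and 34, 4, 6 and 7 UMI in the DZ libraries. Sparc had 10, 0, 0 and 0 UMI in the LZ libraries and 4, 0, 0 and 0 UMI in the DZ libraries. Both were thus highest in the library numbered 1 of each zone, and the cause was not tested. Of 12 red cell and platelet markers 1 is listed, and of 10 natural killer cell markers none. Every listed gene has at least 6 UMI in some library, so an unlisted marker may still have had a few. The summed myeloid markers ranged over 600.1 to 706 CPM in the LZ libraries and 758 to 935 CPM in the DZ libraries, and the summed T cell markers over 202 to 275 CPM in the LZ libraries and 268 to 312 CPM in the DZ libraries. Of the myeloid markers, Cst3 (mean 333 CPM in LZ and 515 CPM in DZ cells) and Flt3 (108 and 143 CPM) were lower in LZ cells. The other tested ones, Cd68, Ctsd, Bst2 and Aif1, went the other way, and the median log2 fold change of the 6 tested was 0.17. Of 18 germinal centre B cell markers 17 are listed, and they summed to 9765 to 12345 CPM in the LZ libraries and 12609 to 13802 CPM in the DZ libraries. Genes of plasma cell differentiation summed to 3173 to 3558 CPM in the LZ libraries and 3823 to 4594 CPM in the DZ libraries. Genes of memory and naive B cells summed to 1410 to 1845 CPM in the LZ libraries and 1170 to 1293 CPM in the DZ libraries, so this sum was higher in LZ cells. For the myeloid markers, the germinal centre B cell markers, the plasma cell genes and the memory and naive B cell genes the sums did not overlap between zones (exact permutation p = 0.0286 each, 0.0686 adjusted over 12 measures). Their part in the results below was not tested.

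Of 9443 listed genes 6824 had enough counts to be tested, and 152 (2.23%) differed between LZ and DZ cells with edgeR's quasi-likelihood test at a Benjamini-Hochberg adjusted p under 0.05, which is what "called" means below. In LZ cells 88 genes (1.29%) were higher and 64 (0.938%) were lower, with a median log2 fold change (LZ over DZ) of 1.28 and -1.15, against 0.02 over all tested genes, of which 3534 lay above 0. The authors' deposited table has 204 genes for this comparison at an adjusted p under 0.05, 118 higher and 86 lower in LZ cells, and 146 of the 152 are among them in the same direction. At least 2-fold differences were seen for 62 of the higher and 41 of the lower genes. For 150 of the 152 every library of one zone lay above every library of the other, which held for 558 (8.18%) of all tested genes. When each of the 8 libraries was left out in turn, 72 to 151 genes were called, with 88 without LZ 1, 85 without LZ 2, 98 without DZ 1, 78 without DZ 2 and 72 without DZ 3. In these fits 56 of the 152 were called every time, and none of the 152 changed direction. With the replicate number added to the main fit as a block, 433 genes were called, the 152 all among them. Nfkb2, Ccnd3, Foxo1, Cd79b, Lck, H2-K1, Mybl1 and Stap1, which the main fit did not call, passed with the block (edgeR adjusted p from 0.00089 to 0.0355). Mybl1 and Stap1 were higher in LZ cells there (log2 fold change 0.91 and 0.90), though both stand in the list of DZ genes below. The labels do not say what the replicate numbers stand for. In simulated data with the same depths, 39.1% of 2-fold and 92.6% of 4-fold changes were recovered, so many 2-fold differences would be missed at this depth and spread. The simulated libraries were drawn independently, without a shift shared by the libraries numbered 4, so these shares hold for that setting only.

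**Figure D1:**
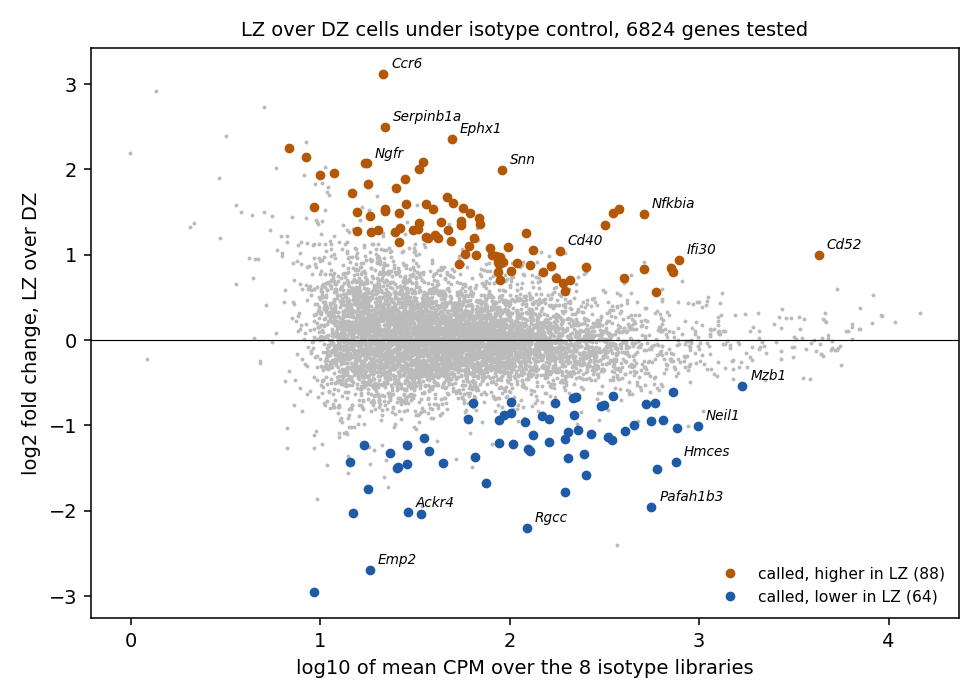
Each point is a tested gene, with the log10 of its mean CPM over the 8 isotype libraries on the x axis and its log2 fold change (LZ over DZ) on the y axis. Orange points are the 88 genes called higher in LZ cells, blue points the 64 called lower, and grey points the genes not called; Ccr6 lies at 3.12 and Emp2 at -2.697.

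NF-kB proteins bind short DNA sites near their target genes, and genes of late cell division often carry a short element named CHR (cell cycle genes homology region) close to their start. Promoters of both kinds are shown for genes that the results below turn on, because their letters hold these motifs. They are RefSeq sequences on GRCm38.p6, from 250 bases before to 50 bases after the gene start, read on the gene's strand. Nfkbia encodes IkB-alpha, the inhibitor that NF-kB itself induces, and Bcl3 encodes an atypical IkB protein. Capitals mark the NF-kB consensus, which lies 29 bases before the start of Nfkbia (chr12:55492598-55492897, minus strand) and begins at base 3 after the start of Bcl3 (chr7:19822706-19823005, minus strand).
Nfkbia: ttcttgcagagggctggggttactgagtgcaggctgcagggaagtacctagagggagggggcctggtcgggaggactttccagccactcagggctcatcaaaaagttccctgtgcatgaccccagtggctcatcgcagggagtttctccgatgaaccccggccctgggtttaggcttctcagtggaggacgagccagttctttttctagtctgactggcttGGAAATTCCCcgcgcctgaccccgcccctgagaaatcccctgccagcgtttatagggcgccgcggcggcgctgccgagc
Bcl3: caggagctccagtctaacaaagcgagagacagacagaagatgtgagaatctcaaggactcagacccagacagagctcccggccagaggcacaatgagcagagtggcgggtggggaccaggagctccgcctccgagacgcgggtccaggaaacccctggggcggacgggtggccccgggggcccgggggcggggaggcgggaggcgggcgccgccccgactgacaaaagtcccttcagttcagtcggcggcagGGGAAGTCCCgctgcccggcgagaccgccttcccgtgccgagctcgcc

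The consensus was found on either strand in 12 of 67 promoters of genes called higher in LZ cells (17.9%), in 4 of 52 promoters of genes lower in LZ cells (7.69%) and in 472 of 5596 tested genes with a promoter in the table (8.43%). Within the list of NF-kB subunits, inhibitors and targets it stood in 9 of 24 promoters (37.5%), and 5 of these belonged to genes called higher in LZ cells, namely Nfkbia, Bcl3, Nfkbid, Tnfaip3 and Ebi3. These are matches of letters in a 300-base window and no evidence of binding.

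The CHR element (TTTGAA on either strand, in capitals) is shown in shorter windows for the called genes of mitosis that hold it, which encode cyclin B2 (Ccnb2, chr9:70421508-70421587, minus strand), the ubiquitin-conjugating enzyme of the anaphase promoting complex (Ube2c, chr2:164769863-164769942, plus strand), that complex's activator (Cdc20, chr4:118437319-118437398, minus strand) and the centromeric histone CENP-A (Cenpa, chr5:30666865-30666935, plus strand).
Ccnb2: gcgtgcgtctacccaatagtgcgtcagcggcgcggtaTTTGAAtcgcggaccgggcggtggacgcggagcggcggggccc
Ube2c: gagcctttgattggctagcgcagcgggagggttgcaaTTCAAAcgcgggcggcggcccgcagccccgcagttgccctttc
Cdc20: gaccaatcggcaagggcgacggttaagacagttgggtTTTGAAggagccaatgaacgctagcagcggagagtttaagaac
Cenpa: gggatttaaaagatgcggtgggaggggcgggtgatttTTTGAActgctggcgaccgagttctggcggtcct

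The element stood in 9 of 18 promoters of mitotic cyclins and kinases, 8 of 13 of the anaphase promoting complex list (61.5%) and 21 of 35 of the kinetochore, centromere and spindle list (60.0%), against 786 of all 5596 tested (14.0%). Of the promoters holding it, 1, 2 and 1 belonged to genes called lower in LZ cells, in the same order. The others, 8, 6 and 20, belonged to genes not called. The element was found in 10 of 52 promoters of genes lower in LZ cells (19.2%) and in 8 of 67 of genes higher in LZ cells (11.9%).

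The genes that define the zones at the surface were measured first, as a check of the labels. Cd83 had 658, 638, 418 and 346 CPM in the LZ libraries, against 208, 237, 172 and 116 CPM in the DZ libraries, so the zones did not overlap (log2 fold change 1.49 ± 0.30 SE, edgeR adjusted p = 0.0103). Cd86, a ligand of the T cell receptor CD28, had 159, 105, 72.7 and 67.02 CPM in the LZ libraries, against 53.3, 37.5, 34.05 and 31.4 CPM in the DZ libraries. It was also higher in LZ cells (log2 fold change 1.36 ± 0.31 SE, edgeR adjusted p = 0.0223). Cxcr4 had 106, 90.7, 123 and 388 CPM in the LZ libraries, against 181, 182, 181 and 389.7 CPM in the DZ libraries. In libraries 1 to 3 Cxcr4 was lower in LZ than in DZ cells, but library 4 was high in both zones, and the difference was not called (log2 fold change -0.40 ± 0.45 SE, edgeR adjusted p = 0.814). In the 6 isotype libraries numbered 1 to 3 alone, the log2 fold change of Cxcr4 was -0.77 ± 0.16 SE with an edgeR adjusted p of 0.00573. In the fit of both treatments without all libraries numbered 4, Cxcr4 was not called (-0.77 ± 0.26 SE, edgeR adjusted p = 0.149). Cd83 and Cd86 go with the LZ label, while Cxcr4 transcript goes with the DZ label only outside the libraries numbered 4. The call of Cd86 ended without LZ 1 or 2 or DZ 2 or 3 (adjusted p up to 0.105).

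**Figure D2:**
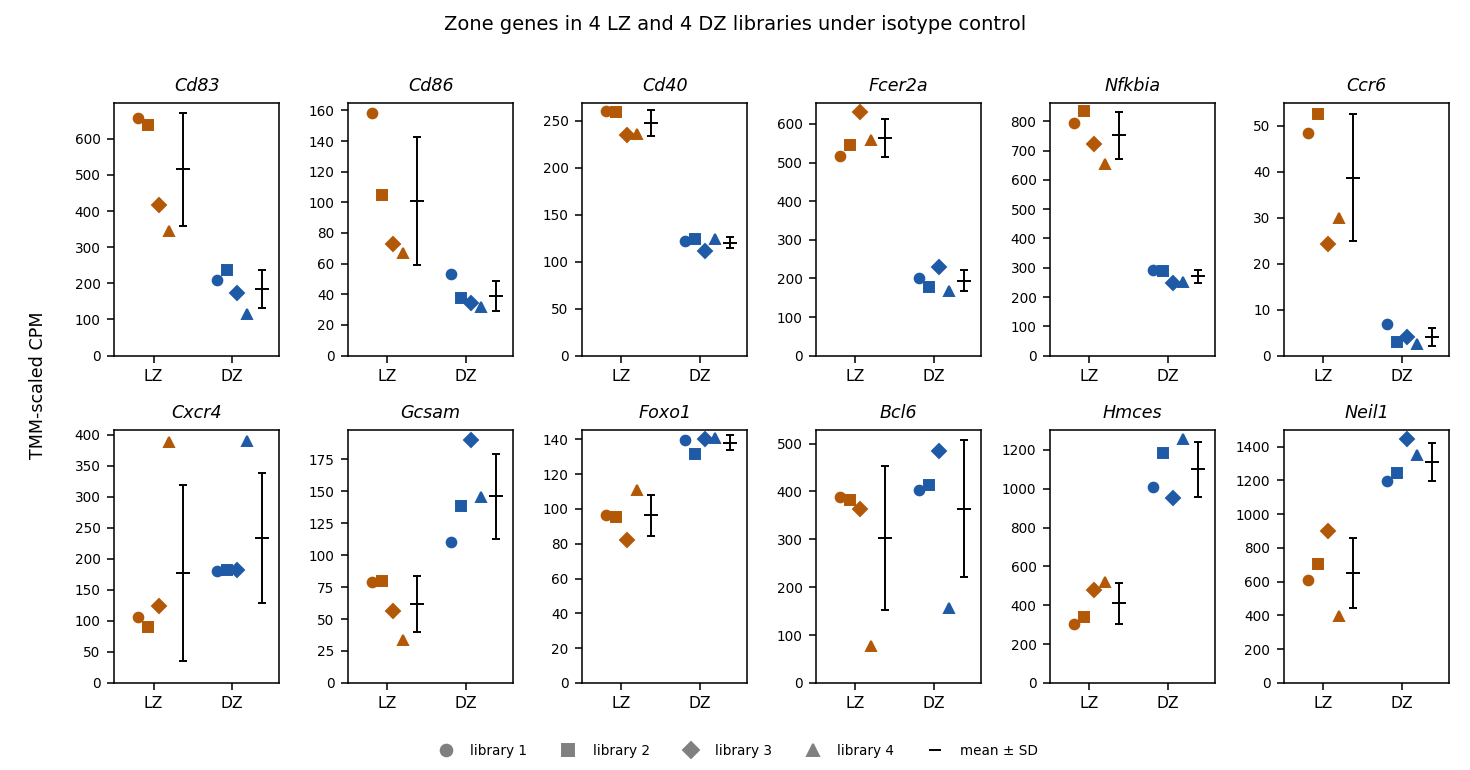
TMM-scaled CPM (y axis, from 0) of 12 zone genes in the 4 LZ libraries (orange, left) and 4 DZ libraries (blue, right), with a marker per library number and the mean ± SD beside them. For Cd83, Cd40, Fcer2a, Nfkbia and Ccr6 the zones do not overlap, and for Cxcr4 and Bcl6 the library numbered 4 (triangle) lies apart from the others.

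Many of the tested genes known from earlier studies as LZ genes were called. Of 27 such genes 24 are listed and 21 were tested, of which 11 (52.4%) were called higher in LZ cells, against 1.29% of all genes, and none lower, with a median log2 fold change of 0.999 and all 21 above 0. Without the libraries numbered 4, 15 were called higher, where 2.98% of all genes were called (1.65% higher and 1.34% lower). Fcer2a, the low-affinity IgE receptor CD23 (chr8:3680280-3694174), had 516, 546, 632 and 559 CPM in the LZ libraries, against 200.01, 178, 229 and 168 CPM in the DZ libraries. Its lowest LZ library stood at more than 2 times its highest DZ library (log2 fold change 1.53 ± 0.14 SE, edgeR adjusted p = 5.51e-06). Ccr6, the receptor of the chemokine CCL20 and a marker of memory precursors, had the largest called fold change, with 48.4, 52.5, 24.2 and 29.98 CPM in the LZ libraries, against 6.92, 3.04, 4.01 and 2.51 CPM in the DZ libraries (log2 fold change 3.12 ± 0.37 SE, edgeR adjusted p = 6.28e-05). In the DZ libraries that amounts to a few UMI, so the size of this difference rests on small counts. Cd52, a short glycoprotein of lymphocytes, had 6107, 5381, 3952 and 7399 CPM in the LZ libraries, against 3419, 2866, 2625 and 2518 CPM in the DZ libraries (log2 fold change 0.999 ± 0.19 SE, edgeR adjusted p = 0.00741). Syngr2, a vesicle membrane protein, had 751, 918, 787 and 1169 CPM in the LZ libraries, against 445, 564, 488 and 525 CPM in the DZ libraries (log2 fold change 0.84 ± 0.15 SE, edgeR adjusted p = 0.00431). Both were separate between the zones, by smaller folds than Fcer2a.

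Cd40 itself was higher in LZ cells without any added CD40 antibody, and so were 12 of 30 tested NF-kB subunits, inhibitors and targets. These 12 include Cd83 and Cd86, whose proteins are usually used to tell the zones apart. They also include Nfkbia, Tnfaip3, Bcl2a1b, Irf4 and Ebi3, which are counted among the LZ genes above. Whether CD40 signals account for these differences was not tested. Cd40 (chr2:165055614-165071654) had 261, 259, 235 and 236 CPM in the LZ libraries, against 122, 125, 111 and 124 CPM in the DZ libraries. That is 2.06-fold higher in LZ cells, with a narrow spread within each zone (log2 fold change 1.04 ± 0.14 SE, edgeR adjusted p = 0.000201). Of the adaptors, Traf5 went the other way. It had 99.4, 119, 104 and 89.9 CPM in the LZ libraries, against 206, 203, 170.2 and 187 CPM in the DZ libraries (log2 fold change -0.89 ± 0.19 SE, edgeR adjusted p = 0.0137). No other member of the 20 tested genes of CD40 and TNF receptor signalling was called than Cd40, Tnfaip3 and Traf5, and the median of this list was 0.26 on the log2 scale.

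In the list of NF-kB subunits, inhibitors and targets 39 genes were named, 36 are listed and 30 were tested. Of these, 12 were called higher in LZ cells and 1 lower, against 1.29% and 0.938% of all genes, with a median log2 fold change of 0.71 and 29 of 30 above 0. Without the libraries numbered 4 the counts were 13 and 1, against 1.65% and 1.34% of all genes. Of the inhibitors, Nfkbia had 795, 834, 723 and 654 CPM in the LZ libraries, against 291, 289.8, 247 and 253 CPM in the DZ libraries (log2 fold change 1.47 ± 0.16 SE, edgeR adjusted p = 2.96e-05). Even the lowest LZ library of Nfkbia had more than 2 times the highest DZ library. Bcl3 had 57.8, 71.6, 89.5 and 118 CPM in the LZ libraries, against 29.1, 28.4, 30.04 and 26.4 CPM in the DZ libraries (log2 fold change 1.55 ± 0.23 SE, edgeR adjusted p = 0.000772). The smaller inhibitors Nfkbid (0.89 ± 0.21) and Nfkbie (0.81 ± 0.21) were called as well, on the log2 scale with SE, with an edgeR adjusted p of 0.0241 for Nfkbid and 0.0432 for Nfkbie. Tnfaip3, the ubiquitin-editing enzyme A20 that damps the pathway, had 25.5, 25.5, 33.6 and 21.2 CPM in the LZ libraries, against 6.23, 6.08, 10.01 and 17.6 CPM in the DZ libraries (log2 fold change 1.45 ± 0.33 SE, edgeR adjusted p = 0.0215). All these inhibitors were separate between the zones.

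Of the subunits, Relb, the partner of p52 in the alternative pathway downstream of CD40, had 99.4, 89.1, 132 and 125 CPM in the LZ libraries, against 42.9, 56.7, 54.1 and 72.9 CPM in the DZ libraries (log2 fold change 0.98 ± 0.23 SE, edgeR adjusted p = 0.0243). Nfkb2, which encodes p100 and p52, had 134, 137, 186 and 269.8 CPM in the LZ libraries, against 108, 80.04, 75.1 and 122 CPM in the DZ libraries. It was not called (log2 fold change 0.91 ± 0.25 SE, edgeR adjusted p = 0.0703), while without the libraries numbered 4 it passed at 0.78 ± 0.21 SE with an edgeR adjusted p of 0.0361. Ebi3, a subunit of the cytokines IL-27 and IL-35, averaged 67.9 ± 15.9 CPM in LZ cells and 30.2 ± 3.17 CPM in DZ cells (SD, n = 4 each, log2 fold change 1.16 ± 0.29 SE, edgeR adjusted p = 0.0369). Slc2a6, a sugar transporter of lysosomal membranes, averaged 47.8 ± 7.44 CPM in LZ cells and 18.5 ± 4.47 CPM in DZ cells (SD, n = 4 each, log2 fold change 1.37 ± 0.24 SE, edgeR adjusted p = 0.0028). The survival gene Bcl2a1b, which shares reads with near-identical copies and is uncertain for that reason, averaged 58.3 ± 21.7 CPM in LZ cells and 19.96 ± 6.25 CPM in DZ cells (SD, n = 4 each, log2 fold change 1.53 ± 0.32 SE, edgeR adjusted p = 0.0119). Gadd45b, a stress-induced regulator of MAP kinase signalling and a known NF-kB target, was the member that was lower in LZ cells. It had 258, 255, 302 and 389.8 CPM in the LZ libraries, against 516, 605, 565 and 717 CPM in the DZ libraries (log2 fold change -0.996 ± 0.20 SE, edgeR adjusted p = 0.0119). Its relative Gadd45g had 37.6, 50.9, 59.7 and 65.3 CPM in the LZ libraries, against 11.1, 13.2, 19.03 and 8.8 CPM in the DZ libraries. It was higher in LZ cells (log2 fold change 2.01 ± 0.35 SE, edgeR adjusted p = 0.00322).

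Several of these calls lay near the threshold. The call of Tnfaip3 ended without LZ 1, 2 or 3 or DZ 1, 2 or 3 (adjusted p up to 0.0929). That of Relb ended without LZ 3 or 4 or DZ 1, 2 or 3 (adjusted p up to 0.104). The call of Nfkbie ended without LZ 1, 2 or 4 or DZ 1, 2 or 3 (adjusted p up to 0.166). That of Nfkbid ended without LZ 2, 3 or 4 or DZ 1, 2 or 3 (adjusted p up to 0.103). The call of Ebi3 ended without LZ 1, 2 or 3 or DZ 1, 2, 3 or 4 (adjusted p up to 0.124). The call of Gadd45b ended without LZ 1 or 2 (adjusted p up to 0.0554). That of Traf5 ended without LZ 1 or DZ 2 (adjusted p up to 0.0514). The call of Bcl2a1b ended without DZ 2 (adjusted p up to 0.0504). The calls of Nfkbia, Bcl3, Slc2a6, Gadd45g and Cd40 held in every such fit.

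B cell receptor signalling components had a median of 0.04, near that of all genes. Of 29 tested members 0 were called in the main edgeR fit over all libraries. The highest of them, Cd79b, a signal chain of the receptor, averaged 3006 ± 292 CPM in LZ cells and 4074 ± 566 CPM in DZ cells (SD, n = 4 each, log2 fold change -0.44 ± 0.17 SE, edgeR adjusted p = 0.254). At an unadjusted p under 0.05, 4 of the 29 passed, and DESeq2 called 0. In the 6 isotype libraries numbered 1 to 3, where edgeR called 5.5% of all genes (2.58% lower and 2.92% higher), Cd79b (-0.47 ± 0.11 SE, edgeR adjusted p = 0.0145) and Syk were called lower in LZ cells, and Prkcb and Bank1 higher. Without all libraries numbered 4, Cd79b was not called (-0.47 ± 0.16 SE, edgeR adjusted p = 0.135). Among 13 tested immediate early genes, which respond fast to receptor signals, the median was 0.56, 10 lay above 0 and 1 was called. That gene was Dusp2, a phosphatase of ERK kinases, with 607, 708, 669 and 825 CPM in the LZ libraries, against 415, 527, 463 and 500.3 CPM in the DZ libraries (log2 fold change 0.56 ± 0.14 SE, edgeR adjusted p = 0.0323). The uncalled members with the highest CPM were Jund at -0.62 ± 0.27 and Zfp36l1 at 0.54 ± 0.39 (log2 fold change ± SE). Of 11 tested inhibitory receptors and phosphatases, Cd72, a receptor that restrains B cell receptor signals, was called higher in LZ cells. It had 501, 506, 449 and 376 CPM in the LZ libraries, against 227, 163, 190.3 and 135 CPM in the DZ libraries (log2 fold change 1.35 ± 0.26 SE, edgeR adjusted p = 0.00792). The call of Dusp2 ended without LZ 2, 3 or 4 or DZ 1, 2, 3 or 4 (adjusted p up to 0.136).

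Genes of antigen presentation gave 1 call, where 2.23% of all tested genes were called. The median log2 fold change was 0.37 over 17 tested genes of MHC class II presentation (15 above 0) and 0.24 over 16 of class I presentation (14 above 0). No class I gene was called in the main edgeR fit over all libraries. At an unadjusted p under 0.05, 5 passed, DESeq2 called 1, and 2 were higher in the 6 isotype libraries numbered 1 to 3. The called class II gene was Ifi30, the lysosomal thiol reductase that prepares antigens for class II molecules. It had 1001, 1267, 994 and 836 CPM in the LZ libraries, against 656, 621, 457 and 407 CPM in the DZ libraries (log2 fold change 0.93 ± 0.19 SE, edgeR adjusted p = 0.0106), a call that ended without LZ 2 (adjusted p up to 0.0506). The invariant chain Cd74 stood at 0.31 ± 0.17 and the class II chain H2-Ab1 at 0.29 ± 0.24, neither called, and the class I molecule H2-K1 at 0.43 ± 0.16 (log2 fold change ± SE). Of 24 tested apoptosis regulators, with a median of 0.08, the called gene was Bcl2a1b. In the list of T cell contact and costimulation 1 of 21 tested genes was called, which was Cd86.

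**Figure D3:**
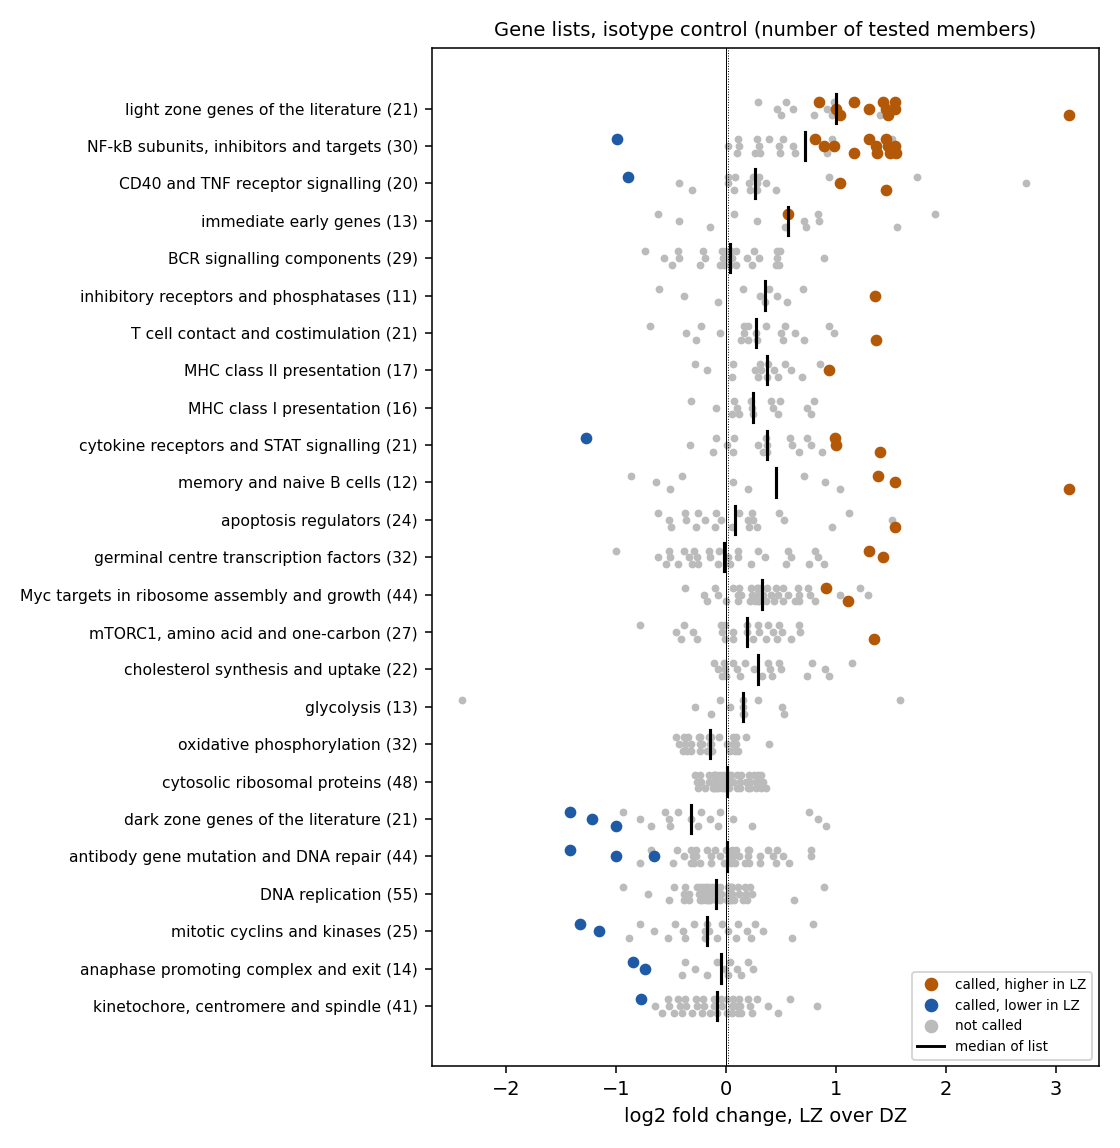
Each point is a tested member of a gene list (rows, with the number of tested members), placed by its log2 fold change (LZ over DZ, x axis), with called genes in orange (higher in LZ) or blue (lower in LZ), grey points not called and black bars the list medians. The LZ genes (median 0.999) and the NF-kB genes (0.71) lie to the right, the DZ genes (-0.32) to the left, and replication, ribosomal protein and B cell receptor lists lie around the dotted median of all genes (0.02).

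Cytokine receptors and their signalling genes had 3 members higher and 1 lower in LZ cells out of 21 tested, with a median of 0.37. Of all genes 1.29% were called higher and 0.938% lower. Ifngr2, a chain of the interferon gamma receptor, had 77.9, 71.6, 78.3 and 93.5 CPM in the LZ libraries, against 29.1, 24.3, 32.05 and 36.5 CPM in the DZ libraries (log2 fold change 1.4 ± 0.23 SE, edgeR adjusted p = 0.00177). Socs1, a brake on JAK kinases, averaged 107 ± 32.3 CPM in LZ cells and 53.6 ± 5.98 CPM in DZ cells (SD, n = 4 each, log2 fold change 0.99 ± 0.24 SE, edgeR adjusted p = 0.0311). Jak3, the kinase of the common gamma chain receptors, averaged 77.2 ± 13.2 CPM in LZ cells and 38.4 ± 8.56 CPM in DZ cells (SD, n = 4 each, log2 fold change 1.004 ± 0.24 SE, edgeR adjusted p = 0.0323). Tgfbr1, the type I receptor of TGF-beta, had 84.6, 77.98, 91.4 and 35.3 CPM in the LZ libraries, against 125, 132, 184 and 267 CPM in the DZ libraries (log2 fold change -1.28 ± 0.31 SE, edgeR adjusted p = 0.0327). In Tgfbr1 the zones were closest in libraries 1 to 3 and widest in library 4, and without the libraries numbered 4 its log2 fold change was -0.79 ± 0.22 SE with an edgeR adjusted p of 0.0482. None of 18 tested interferon response genes was called with edgeR, with 5 at an unadjusted p under 0.05 and 0 called by DESeq2. The call of Socs1 ended without LZ 2, 3 or 4 or DZ 1, 2 or 3 (adjusted p up to 0.13). That of Jak3 ended without LZ 1, 3 or 4 or DZ 1, 2 or 3 (adjusted p up to 0.132). The call of Tgfbr1 ended without LZ 1, 2, 3 or 4 or DZ 3 or 4 (adjusted p up to 0.102).

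Transcription factors of B cell fate were called in a few cases only. Of 32 tested germinal centre factors, Irf4 and Batf were higher in LZ cells and none was lower, against 1.29% and 0.938% of all genes. In the 6 isotype libraries numbered 1 to 3, 4 of 31 were higher and 3 lower, against 2.92% and 2.58% of all genes. Irf4, which is induced by CD40 and B cell receptor signals and drives plasma cell differentiation at high levels, had 42.996, 58.9, 35.4 and 47.6 CPM in the LZ libraries, against 17.3, 14.2, 19.03 and 25.1 CPM in the DZ libraries (log2 fold change 1.304 ± 0.28 SE, edgeR adjusted p = 0.0148). Batf, an AP-1 family factor, had 119.6, 138, 70.8 and 74.1 CPM in the LZ libraries, against 42.2, 39.5, 41.1 and 26.4 CPM in the DZ libraries (log2 fold change 1.43 ± 0.28 SE, edgeR adjusted p = 0.00798). Myc, which marks cells that have received T cell help, had 21.5, 46.2, 41.01 and 21.2 CPM in the LZ libraries, against 23.5, 29.4, 16.02 and 18.9 CPM in the DZ libraries, with overlapping zones (log2 fold change 0.54 ± 0.33 SE, edgeR adjusted p = 0.572). Bcl6, the repressor that defines germinal centre B cells, had 388, 382, 364 and 77.6 CPM in the LZ libraries, against 402, 413, 484 and 156 CPM in the DZ libraries (log2 fold change -0.26 ± 0.41 SE, edgeR adjusted p = 0.878). Library 4 was several times below the others in both zones for Bcl6, and without the LZ library of that number its log2 fold change turned to 0.05. Foxo1, a factor that maintains the DZ state, had 96.7, 95.5, 82.03 and 111 CPM in the LZ libraries, against 139.8, 132, 140.2 and 141 CPM in the DZ libraries. Its zones did not overlap, yet it missed the threshold (log2 fold change -0.52 ± 0.17 SE, edgeR adjusted p = 0.145), and within the 6 isotype libraries numbered 1 to 3 it passed at -0.58 ± 0.16 SE with an edgeR adjusted p of 0.043. Without all libraries numbered 4, Foxo1 was not called (-0.58 ± 0.20 SE, edgeR adjusted p = 0.13). The call of Irf4 ended without LZ 2 or DZ 1, 2 or 3 (adjusted p up to 0.065).

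Genes of memory and naive B cells included 3 called members of 12 tested, all higher in LZ cells, against 1.29% of all genes. They were Ccr6 and Fcer2a, which are also counted in the LZ list above, and Klf2. Klf2, a FoxO target that supports quiescence and recirculation, had 51.1, 65.2, 61.5 and 74.1 CPM in the LZ libraries, against 30.5, 23.3, 22.03 and 18.9 CPM in the DZ libraries (log2 fold change 1.38 ± 0.34 SE, edgeR adjusted p = 0.0337). Of 20 tested migration and positioning receptors, Ccr6 and S1pr3, a receptor of sphingosine-1-phosphate, were called, against 2.23% of all genes. S1pr3 had 76.6, 57.3, 61.5 and 72.3 CPM in the LZ libraries, against 22.8, 28.4, 36.1 and 22.6 CPM in the DZ libraries (log2 fold change 1.29 ± 0.21 SE, edgeR adjusted p = 0.00221). Plasma cell genes gave Irf4 and, in the other direction, Mzb1, a chaperone of antibody secretion. Mzb1 had 1141, 1391, 1546 and 1437 CPM in the LZ libraries, against 1973, 1888, 2176 and 1986 CPM in the DZ libraries (log2 fold change -0.54 ± 0.13 SE, edgeR adjusted p = 0.0248). The call of Klf2 ended without any single library (adjusted p up to 0.117). The call of Mzb1 ended without LZ 1 or 2 or DZ 1, 2, 3 or 4 (adjusted p up to 0.128).

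Of 22 DZ genes known from earlier studies 21 were tested. Of these, 3 (14.3%) were called lower in LZ cells, against 0.938% of all genes, with a median log2 fold change of -0.32 and 16 of 21 below 0. Hmces, a protein that shields abasic sites in DNA, had 304, 339, 481 and 519 CPM in the LZ libraries, against 1009, 1183, 950.4 and 1256 CPM in the DZ libraries (log2 fold change -1.42 ± 0.23 SE, edgeR adjusted p = 0.00195). Neil1, a DNA glycosylase of base excision repair, had 607, 705, 899 and 397 CPM in the LZ libraries, against 1197, 1244, 1447 and 1351 CPM in the DZ libraries (log2 fold change -1.01 ± 0.21 SE, edgeR adjusted p = 0.0136). Gcsam, a germinal centre adaptor that restrains cell motility, had 79.3, 79.6, 55.9 and 33.5 CPM in the LZ libraries, against 110.04, 139, 190.3 and 146 CPM in the DZ libraries (log2 fold change -1.22 ± 0.28 SE, edgeR adjusted p = 0.024). In all 3 the zones were separate.

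Others of this list missed the threshold. Ccnd3, the D cyclin of DZ division, had 476, 388, 469.8 and 608 CPM in the LZ libraries, against 691, 678, 737 and 759 CPM in the DZ libraries (log2 fold change -0.56 ± 0.18 SE, edgeR adjusted p = 0.129). Without the libraries numbered 4 Ccnd3 passed at -0.66 ± 0.17 SE with an edgeR adjusted p of 0.0326. Tcf3, which encodes E2A, had 156, 236, 392 and 478 CPM in the LZ libraries, against 345, 336, 329 and 691 CPM in the DZ libraries (log2 fold change -0.43 ± 0.34 SE, edgeR adjusted p = 0.699). Stap1, an adaptor of B cell receptor signalling, ran against its place in the list, with 171, 129, 145 and 40.6 CPM in the LZ libraries, against 62.98, 38.5, 113 and 44 CPM in the DZ libraries (log2 fold change 0.91 ± 0.40 SE, edgeR adjusted p = 0.344). Without the libraries numbered 4 it was called higher in LZ cells (1.06 ± 0.27 SE with an edgeR adjusted p of 0.0356). In the 6 isotype libraries numbered 1 to 3 Stap1 was not called (1.06 ± 0.30 SE, edgeR adjusted p = 0.0673). Mybl1 of this list also lay above 0 (log2 fold change 0.84 ± 0.30 SE, edgeR adjusted p = 0.206). Those 6 libraries gave Mybl1 a call higher in LZ cells (1.02 ± 0.27 SE, edgeR adjusted p = 0.0382). It was not called without all libraries numbered 4 (1.01 ± 0.32 SE, edgeR adjusted p = 0.101). The call of Gcsam ended without LZ 3 or DZ 2 or 3 (adjusted p up to 0.0936).

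Of 44 tested genes of antibody gene mutation and DNA repair 3 were called, all lower in LZ cells, against 0.938% of all genes. They were Hmces, Neil1 and Xrcc1, all genes of base excision repair or abasic site handling, while the list as a whole had a median of 0.01. Hmces and Neil1 are also counted in the DZ list above, and base excision repair was not tested as a group. Xrcc1, the scaffold of single-strand break repair, had 258, 274, 249.8 and 305 CPM in the LZ libraries, against 406, 420.4, 404 and 485 CPM in the DZ libraries (log2 fold change -0.66 ± 0.14 SE, edgeR adjusted p = 0.0148), a call that ended without LZ 1 or 3 or DZ 4 (adjusted p up to 0.0748).

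A few genes of mitosis were lower in LZ cells. Of 55 tested genes of DNA replication 0 were called with edgeR over all libraries, with a median of -0.09, 3 at an unadjusted p under 0.05 and 0 called by DESeq2. Mcm6, a helicase subunit, had 313, 255, 289 and 446 CPM in the LZ libraries, against 428, 438, 406 and 372 CPM in the DZ libraries (log2 fold change -0.34 ± 0.18 SE, edgeR adjusted p = 0.498). In the 6 isotype libraries numbered 1 to 3 it was called lower in LZ cells (-0.57 ± 0.13 SE, edgeR adjusted p = 0.0144), the 1 replication gene called there. Without all libraries numbered 4, Mcm6 was not called (-0.57 ± 0.17 SE, edgeR adjusted p = 0.0692). In mitosis, 2 of 25 tested cyclins and kinases (8%), 2 of 14 tested genes of the anaphase promoting complex (14.3%) and 1 of 41 tested kinetochore, centromere and spindle genes (2.44%) were called, all lower in LZ cells, against 0.938% of all genes. These shares rest on 1 or 2 genes each, and that of the kinetochore list is near the share of all genes. The medians of these lists were -0.17, -0.05 and -0.08. Whether the replication and mitosis lists differ from each other was not tested.

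Ccnb2, which drives entry into mitosis and whose promoter window is shown above, had 116, 111, 132 and 127 CPM in the LZ libraries, against 272, 302, 245 and 261 CPM in the DZ libraries (log2 fold change -1.15 ± 0.19 SE, edgeR adjusted p = 0.00221). Cdc25b, the phosphatase that activates CDK1, had 125, 105, 186 and 143 CPM in the LZ libraries, against 246, 288, 369 and 505 CPM in the DZ libraries (log2 fold change -1.33 ± 0.31 SE, edgeR adjusted p = 0.024). Its DZ values spread over a 2-fold range and were highest in library 4. Ube2c had 118, 145, 136 and 122 CPM in the LZ libraries, against 212, 196, 230.3 and 230.1 CPM in the DZ libraries (log2 fold change -0.74 ± 0.16 SE, edgeR adjusted p = 0.0136). Cdc20 had 60.5, 79.6, 65.3 and 84.7 CPM in the LZ libraries, against 121, 143, 97.1 and 162 CPM in the DZ libraries (log2 fold change -0.85 ± 0.22 SE, edgeR adjusted p = 0.0477), close to the threshold. Cenpa had 193, 210.1, 268 and 219 CPM in the LZ libraries, against 343, 431, 377 and 371 CPM in the DZ libraries (log2 fold change -0.77 ± 0.16 SE, edgeR adjusted p = 0.0136). In these 5 genes every LZ library lay below every DZ library. H2az2, a histone variant of the chromosome structure list, averaged 392 ± 11.6 CPM in LZ cells and 655 ± 119 CPM in DZ cells (SD, n = 4 each, log2 fold change -0.74 ± 0.18 SE, edgeR adjusted p = 0.0314).

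Of the cyclins that act in G1, Ccnd2 was the called member of 23 tested G1/S genes. It had 13.4, 14.3, 9.32 and 8.82 CPM in the LZ libraries, against 3.46, 1.01, 4.01 and 0 CPM in the DZ libraries. It was higher in LZ cells (log2 fold change 2.25 ± 0.58 SE, edgeR adjusted p = 0.0448), with 1 DZ library at 0 and the others at 1 to 5 UMI. The call of Cdc25b ended without LZ 1 or 2 or DZ 3 or 4 (adjusted p up to 0.0872). That of Ube2c ended without LZ 1 or DZ 3 (adjusted p up to 0.0607). The call of Cdc20 ended without LZ 1, 2 or 3 or DZ 1, 2, 3 or 4 (adjusted p up to 0.191). That of Cenpa ended without LZ 1 or 2 or DZ 2 (adjusted p up to 0.0607). The call of H2az2 ended without LZ 1, 2 or 3 or DZ 1 or 2 (adjusted p up to 0.123). That of Ccnd2 ended without LZ 1, 2 or 3 or DZ 1, 2, 3 or 4 (adjusted p up to 0.138). That of Ccnb2 held in every such fit, and without the libraries numbered 4 Cdc25b was not called (-1.12 ± 0.35 SE with an edgeR adjusted p of 0.128).

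**Figure D4:**
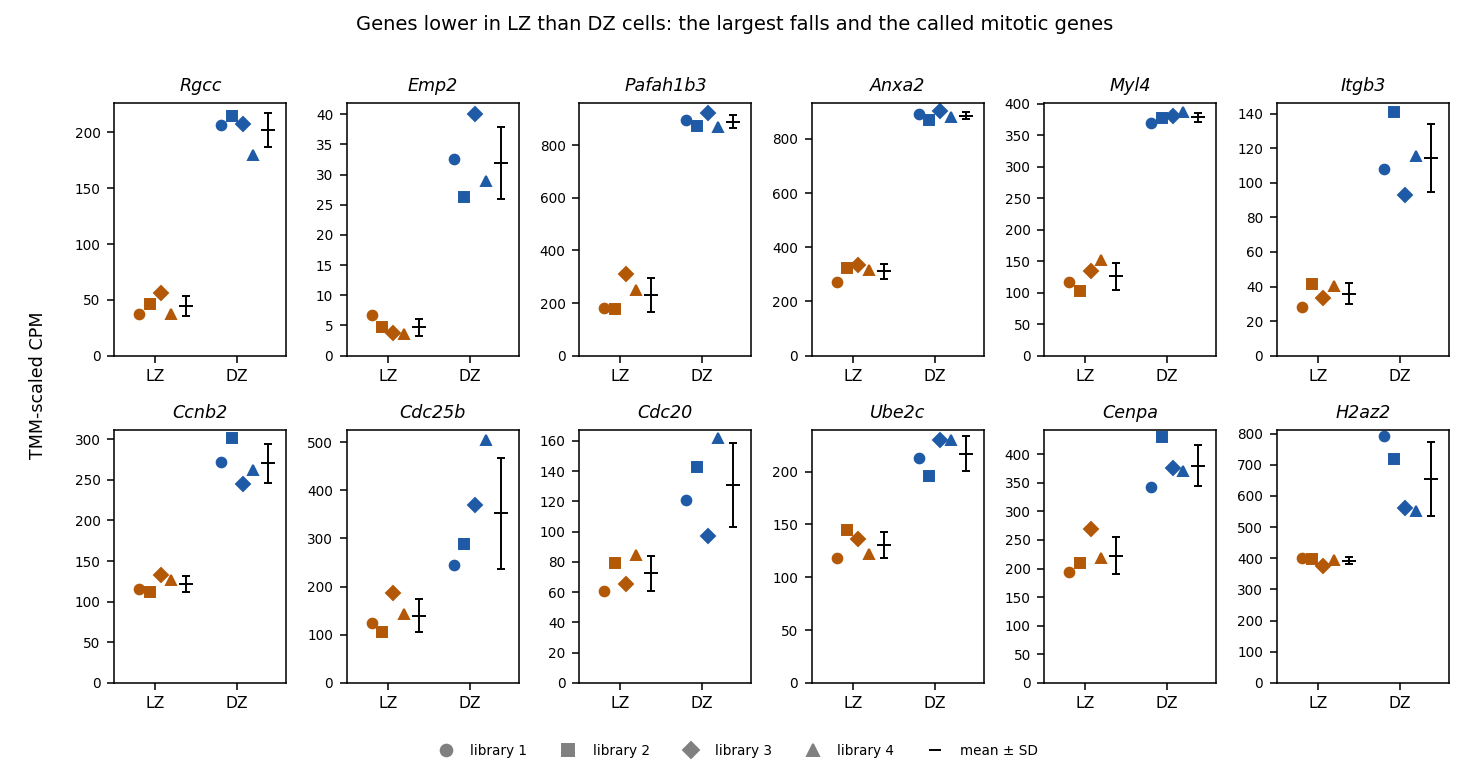
TMM-scaled CPM (y axis, from 0) of 6 of the genes with the largest falls (upper row) and 6 called mitotic or chromosome genes (lower row) in the 4 LZ libraries (orange, left) and 4 DZ libraries (blue, right), with mean ± SD. Every LZ library lies below every DZ library in all 12 genes.

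Growth and metabolism genes gave few calls. Of 9 tested members of the Myc and Max network 0 were called with edgeR, 0 with DESeq2 and 0 passed an unadjusted p of 0.05. Myc targets in ribosome assembly and growth had a median of 0.33 on the log2 scale, with 39 of 44 above 0. Against 1.29% of all genes, 2 of them were called higher in LZ cells. These were Gnl3, a nucleolar GTPase, at 82.6 ± 22.3 CPM in LZ cells and 38.6 ± 3.17 CPM in DZ cells (SD, n = 4 each, log2 fold change 1.105 ± 0.24 SE, edgeR adjusted p = 0.0155), and Srm, spermidine synthase. Srm averaged 113 ± 20.4 CPM in LZ cells and 59.96 ± 11.5 CPM in DZ cells (SD, n = 4 each, log2 fold change 0.91 ± 0.23 SE, edgeR adjusted p = 0.0381). The uncalled Eif5a stood at 0.30 ± 0.13 and Nme1 at 0.26 ± 0.15 (log2 fold change ± SE). Ddit4, a stress-induced inhibitor of mTORC1 and a FoxO target, had 73.9, 84.3, 80.2 and 77.6 CPM in the LZ libraries, against 31.8, 28.4, 31.04 and 32.7 CPM in the DZ libraries (log2 fold change 1.35 ± 0.28 SE, edgeR adjusted p = 0.0136), the 1 call among 27 mTORC1, amino acid and one-carbon genes. No call was made with edgeR among 13 glycolysis genes, 32 genes of oxidative phosphorylation, 22 of cholesterol synthesis and uptake, 9 heat shock genes or 48 ribosomal protein genes, whose medians were 0.15, -0.15, 0.29, 0.09 and 0.00. At an unadjusted p under 0.05, 1, 4, 2, 1 and 0 of these passed, in the same order, and DESeq2 called 0 of them. In the 6 isotype libraries numbered 1 to 3 edgeR called 4 genes of oxidative phosphorylation lower in LZ cells, 2 of cholesterol synthesis and 2 heat shock genes higher, and 8 of 43 Myc targets higher. Of all genes 2.58% were called lower there and 2.92% higher. The call of Gnl3 ended without LZ 1 or 2 or DZ 1 (adjusted p up to 0.065). That of Srm ended without LZ 1, 2 or 4 or DZ 2, 3 or 4 (adjusted p up to 0.152). The call of Ddit4 ended without DZ 2 or 3 (adjusted p up to 0.0549).

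Among 27 chromatin regulators Smarca4, the ATPase of the BAF remodelling complex, was lower in LZ cells, with 200.2, 158, 248 and 219 CPM in the LZ libraries, against 399, 441, 409 and 564 CPM in the DZ libraries (log2 fold change -1.14 ± 0.18 SE, edgeR adjusted p = 0.00164). Kdm6b, a demethylase of histone H3 lysine 27, was higher at 28.6 ± 8.31 CPM in LZ cells and 11.7 ± 3.21 CPM in DZ cells (SD, n = 4 each, log2 fold change 1.29 ± 0.31 SE, edgeR adjusted p = 0.0294). The Kdm6b call ended without LZ 2, 3 or 4 or DZ 1, 2 or 3 (adjusted p up to 0.117).

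The genes with the largest called differences included many that belong to none of the lists above. Among those higher in LZ cells, Ccr6 was followed by Serpinb1a, a protease inhibitor, with 52.4, 46.2, 29.8 and 22.9 CPM in the LZ libraries, against 14.5, 4.05, 4.01 and 1.26 CPM in the DZ libraries (log2 fold change 2.5 ± 0.46 SE, edgeR adjusted p = 0.00497). Ephx1, an epoxide hydrolase (chr1:180989556-181017569), had 65.8, 82.8, 80.2 and 102 CPM in the LZ libraries, against 20.1, 14.2, 14.02 and 15.1 CPM in the DZ libraries (log2 fold change 2.35 ± 0.33 SE, edgeR adjusted p = 0.000502). Snn, a small membrane protein (chr16:11066298-11074985), had 159, 129, 198 and 101 CPM in the LZ libraries, against 42.2, 26.3, 40.1 and 37.7 CPM in the DZ libraries (log2 fold change 1.99 ± 0.24 SE, edgeR adjusted p = 6.28e-05). In all 3 the zones were separate, and for Serpinb1a DZ library 1 came closest to the LZ libraries. Mndal, of the interferon-inducible Ifi200 family whose members share sequence, had 95.4, 57.3, 52.2 and 21.2 CPM in the LZ libraries, against 20.1, 12.2, 15.02 and 3.77 CPM in the DZ libraries (log2 fold change 2.09 ± 0.48 SE, edgeR adjusted p = 0.024). In both zones library 4 was the lowest for Mndal and library 1 the highest.

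Ffar2, a receptor of short-chain fatty acids, averaged 27.7 ± 9.17 CPM in LZ cells and 6.603 ± 1.68 CPM in DZ cells (SD, n = 4 each, log2 fold change 2.08 ± 0.36 SE, edgeR adjusted p = 0.00278). Ngfr, the neurotrophin receptor p75, averaged 28.5 ± 5.32 CPM in LZ cells and 6.58 ± 2.81 CPM in DZ cells (SD, n = 4 each, log2 fold change 2.07 ± 0.38 SE, edgeR adjusted p = 0.00522). Abca2, a lipid transporter, averaged 43.7 ± 15.5 CPM in LZ cells and 12.2 ± 4.64 CPM in DZ cells (SD, n = 4 each, log2 fold change 1.88 ± 0.32 SE, edgeR adjusted p = 0.00278). Rilpl2, a protein of ciliary and vesicle transport, averaged 28.2 ± 5.702 CPM in LZ cells and 7.59 ± 3.503 CPM in DZ cells (SD, n = 4 each, log2 fold change 1.83 ± 0.34 SE, edgeR adjusted p = 0.0058). These 4 were separate between zones with DZ means below 13 CPM. The protease inhibitor Serpinb6b (1.78 ± 0.39), the pyridoxal kinase Pdxk (1.72 ± 0.38), the lipid phosphatase Plpp1 (1.603 ± 0.23), the Rab5 activator Rabgef1 (1.59 ± 0.26) and Ccdc17 (1.19 ± 0.20) were also called (log2 fold change ± SE, edgeR adjusted p from 0.000625 to 0.0199). Mif, a cytokine that binds CD74, averaged 921 ± 164 CPM in LZ cells and 529 ± 25.6 CPM in DZ cells (SD, n = 4 each, log2 fold change 0.80 ± 0.19 SE, edgeR adjusted p = 0.0309). The call of Mndal ended without LZ 1 or 2 or DZ 2 or 3 (adjusted p up to 0.11). That of Serpinb6b ended without LZ 1 or 2 or DZ 3 (adjusted p up to 0.0755). The call of Pdxk ended without LZ 1 or 2 or DZ 2 or 3 (adjusted p up to 0.0756). That of Mif ended without LZ 1, 2 or 4 or DZ 1, 2, 3 or 4 (adjusted p up to 0.102).

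The genes lower in LZ cells with the largest differences at 20 CPM or more in DZ cells included Rgcc and Emp2. Rgcc, a regulator of cell cycle and complement response (chr14:79288750-79301635), had 37.6, 46.2, 55.9 and 37.04 CPM in the LZ libraries, against 207, 215, 207 and 179.8 CPM in the DZ libraries. That is 4.59-fold lower in LZ cells (log2 fold change -2.198 ± 0.21 SE, edgeR adjusted p = 5.51e-06). Emp2, a tetraspan membrane protein (chr16:10281749-10313968), had 6.72, 4.77, 3.73 and 3.53 CPM in the LZ libraries, against 32.5, 26.3, 40.1 and 28.9 CPM in the DZ libraries (log2 fold change -2.697 ± 0.34 SE, edgeR adjusted p = 0.000144). Pafah1b3, a catalytic subunit of a platelet-activating factor acetylhydrolase (chr7:25295048-25297986), had 181, 177, 311 and 249 CPM in the LZ libraries, against 893, 871, 923 and 869.9 CPM in the DZ libraries (log2 fold change -1.96 ± 0.19 SE, edgeR adjusted p = 5.69e-06). Anxa2, a calcium-dependent membrane-binding annexin (chr9:69453683-69491792), had 273, 323, 336 and 316 CPM in the LZ libraries, against 893, 869, 902 and 879.99 CPM in the DZ libraries (log2 fold change -1.51 ± 0.14 SE, edgeR adjusted p = 5.51e-06). Its DZ libraries lay within a few percent of each other, and the highest LZ library was at 38.6% of the lowest DZ library.

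Myl4, a myosin light chain, had 117, 102, 134 and 152 CPM in the LZ libraries, against 369, 377, 379.5 and 387 CPM in the DZ libraries (log2 fold change -1.59 ± 0.17 SE, edgeR adjusted p = 1.64e-05). Itgb3, the integrin beta 3 chain, lies 20785 bases from Myl4 on chromosome 11 and had 28.2, 41.4, 33.6 and 40.6 CPM in the LZ libraries, against 108, 141, 93.1 and 116 CPM in the DZ libraries (log2 fold change -1.67 ± 0.25 SE, edgeR adjusted p = 0.000772). Arl5c, an ARF-like GTPase, had 71.2, 81.2, 119 and 82.9 CPM in the LZ libraries, against 336, 316, 298 and 263 CPM in the DZ libraries (log2 fold change -1.78 ± 0.24 SE, edgeR adjusted p = 0.000302). Ackr4, a scavenger of the chemokines CCL19 and CCL21, had 10.7, 6.37, 20.5 and 8.82 CPM in the LZ libraries, against 46.4, 45.6, 54.1 and 40.2 CPM in the DZ libraries (log2 fold change -2.02 ± 0.37 SE, edgeR adjusted p = 0.00526). Dnase1 (-2.02 ± 0.49), the growth factor homologue Fgf11 (-1.74 ± 0.36), the thromboxane receptor Tbxa2r (-1.504 ± 0.34) and paralemmin, Palm (-1.49 ± 0.37), were also lower in LZ cells (log2 fold change ± SE, edgeR adjusted p from 0.0119 to 0.0346). With higher CPM in both zones, Trp53i11, a p53-induced gene, had 343, 336, 546 and 794 CPM in the LZ libraries, against 923, 933, 935 and 1309 CPM in the DZ libraries (log2 fold change -1.02 ± 0.23 SE, edgeR adjusted p = 0.024). Cox7a2l, a factor of respiratory supercomplexes, averaged 579 ± 53.3 CPM in LZ cells and 881 ± 126 CPM in DZ cells (SD, n = 4 each, log2 fold change -0.61 ± 0.15 SE, edgeR adjusted p = 0.037). The call of Dnase1 ended without LZ 1, 2 or 3 or DZ 2, 3 or 4 (adjusted p up to 0.131). That of Tbxa2r ended without LZ 1 or 3 or DZ 3 or 4 (adjusted p up to 0.105). The call of Palm ended without LZ 1, 2, 3 or 4 or DZ 1, 2 or 4 (adjusted p up to 0.128). That of Trp53i11 ended without LZ 1, 2 or 3 or DZ 2, 3 or 4 (adjusted p up to 0.113). The call of Cox7a2l ended without LZ 1, 2, 3 or 4 or DZ 1, 2 or 3 (adjusted p up to 0.138).

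Snn and Txndc11 overlap by 74 bases on chromosome 16, and Txndc11 was lower in LZ cells (-1.05 ± 0.20) while Snn was higher. Whether counting used strand is not given in the sources used here, so reads in the overlap cannot be assigned with certainty. Of the 3 tested T cell markers, Cd2, an adhesion receptor of T cells that mouse B cells also carry, was called. It was lower in LZ cells, with 124, 93.9, 129 and 97.002 CPM in the LZ libraries, against 225, 202, 226 and 186 CPM in the DZ libraries (log2 fold change -0.92 ± 0.22 SE, edgeR adjusted p = 0.0279). Lck stood at 0.69 ± 0.19 and Lat at 0.40 ± 0.39 (log2 fold change ± SE, not called), though Lck passed in the 6 isotype libraries numbered 1 to 3 (edgeR adjusted p = 0.0482). Without all libraries numbered 4, Lck was not called (0.67 ± 0.20 SE, edgeR adjusted p = 0.0812). The Cd2 call ended without LZ 1, 2 or 4 or DZ 1, 2 or 3 (adjusted p up to 0.0982).

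The same contrast in the 8 libraries from mice given anti-CD40 shares no library with the isotype contrast, only the gene filter, the scaling and the estimate of spread. There 786 genes (11.5%) were called, 419 (6.14%) higher and 367 (5.38%) lower in LZ cells. Of the 152 genes called under isotype, 146 had the same sign after anti-CD40 and 109 were called in the same direction, which is 71.7% of the 152 and 13.9% of the 786. The 786 fell to 480 without LZ 2 and 498 without DZ 3 of the anti-CD40 libraries. By direction the 109 were 51 of the 88 higher and 58 of the 64 lower genes. Anxa2 had a log2 fold change of -1.51 under isotype and -1.47 after anti-CD40, Myl4 of -1.59 and -1.61, Fcer2a of 1.53 and 1.42, and Cd40 of 1.04 and 0.95.

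A difference of the 2 contrasts was called in the main fit for 1 gene (0.0147% of those tested), Cacna1i, and for none of the 152. There 586 genes had an unadjusted p under 0.05. With the replicate block 107 genes were called for this difference, Cacna1i among them. DESeq2 called 38 genes for this difference and gave no adjusted p for Cacna1i. For Cacna1i, a subunit of T-type calcium channels, the log2 fold change was -0.84 ± 0.30 SE under isotype and -5.06 ± 0.55 SE after anti-CD40 (edgeR adjusted p of the difference 0.0388), a call that ended in 13 of the 16 fits that leave out 1 library. The genes next in order were Efnb1, Trim7, Cyb561a3 and Apoe with a difference above 0 and Fkbp1a, Nhp2, Impdh2, Fdps and Ldha with one below 0, at adjusted p values from 0.113 to 0.225. The 6 genes that changed sign, named after their values were seen, were Ngfr, Klf2, Cyb561a3, Clec2i, Sapcd1 and Trim7. All were higher in LZ cells under isotype, and after anti-CD40 none was called. Ngfr stood at 2.07 ± 0.38 under isotype and -0.87 ± 0.67 after anti-CD40 (log2 fold change ± SE, edgeR adjusted p of the difference 0.242), and Klf2 at 1.38 ± 0.34 and -0.55 ± 0.45 (adjusted p of the difference 0.303). Bcl3 stood at 1.55 ± 0.23 and 0.23 ± 0.21 (adjusted p of the difference 0.202), and Hmces, a DZ gene, at -1.42 ± 0.23 and -2.66 ± 0.25 (adjusted p of the difference 0.242). None of these 4 differences passed the threshold in the main fit. Cxcr4 was called after anti-CD40, at -2.31 ± 0.49 against -0.40 ± 0.45 under isotype, with the difference not called (edgeR adjusted p 0.381).

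**Figure D5:**
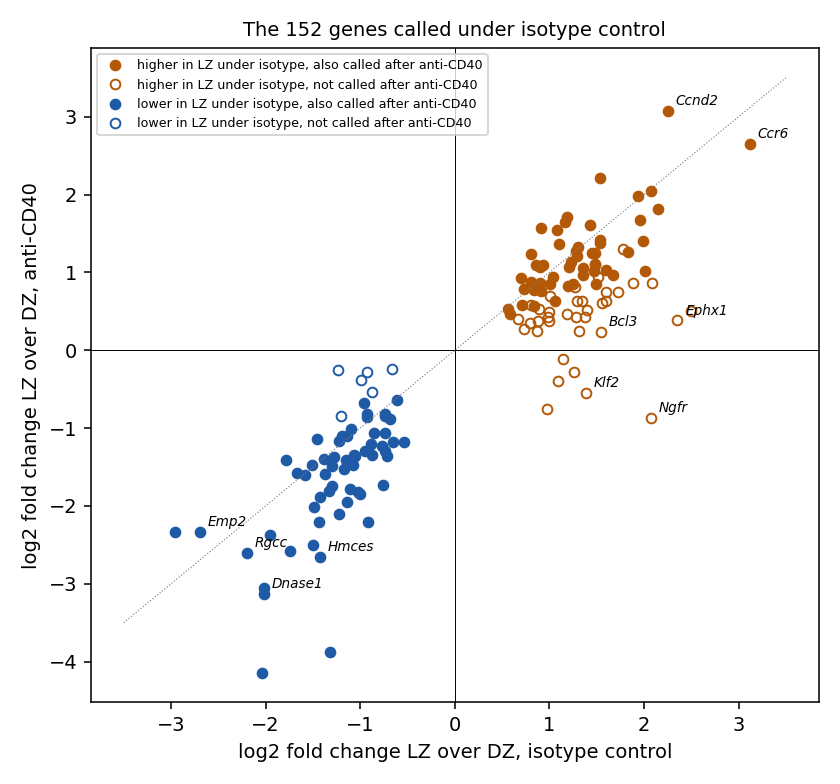
Each point is 1 of the 152 genes called under isotype control, with its log2 fold change (LZ over DZ) under isotype on the x axis and after anti-CD40 on the y axis; filled points (109) were also called after anti-CD40 and the dotted line marks equal values. The 6 points below 0 on the right are genes such as Ngfr and Klf2 whose sign differed.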

How the data were processed

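Messenger RNA of sorted LZ and DZ germinal centre B cells was sequenced in barcoded bulk libraries after linear amplification, per the labels' protocols. The authors deposited a table of raw UMI counts per gene and library. The tools named are cutadapt, STAR, HTSeq and DESeq2, with genome build mm10, per the submitters' processing notes; versions and gene annotation are not given in the sources used here. The same deposited table holds the authors' log2 fold changes and adjusted p-values, used here for 1 count. Immunoglobulin genes and genes of the mitochondrial genome have no values in it, and 32 further per-library columns (normalized values and the like) were not used.

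Libraries were grouped by their labels (4 LZ and 4 DZ under isotype control, 4 and 4 after anti-CD40). Counts were fitted with edgeR 4.0.16 (R 4.3.3): filterByExpr with a minimum count of 10, TMM factors, and the robust quasi-likelihood test with 1 mean per group over all 16 libraries, so that the groups share their spread (biological coefficient of variation 24.6%). P-values were adjusted with Benjamini-Hochberg over all 6824 tested genes, which hold 98.6% of the UMI. Fold changes are LZ over DZ and the SE is the fold change divided by the root of F. The filter keeps genes with counts in either zone, and shallower LZ libraries give less precise values for low genes. Replicate numbers entered the fit only as an alternative (a block). limma 3.58.1 and DESeq2 1.42.0 served as alternatives, beside other scaling factors, other filters, thinned counts, a fold threshold of 1.5 and leaving out libraries. The fit of the 6 isotype libraries numbered 1 to 3 was added after seeing the data. On simulated counts (10 sets with 200 changed genes among 6824) 39.1% of 2-fold and 92.6% of 4-fold changes were recovered in the isotype comparison, and 5.03% of calls were false. The simulated libraries were drawn independently, with the fitted spread of each gene.

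The 42 gene lists and the comparison itself were chosen with earlier results of these data known. Named genes are zone genes (Cxcr4, Cd83, Cd86, Cd40, Myc, Bcl6, Foxo1), the 12 largest called changes each way at 20 CPM or more in the higher zone, up to 4 called members each way per list with 2 abundant uncalled ones, the 5 called genes each way with the smallest p outside the lists or the highest CPM, and the 5 each way with the smallest p of the interaction, of which those that bear on the results are printed and a few are not reported here. Nfkbid, Nfkbie, Relb, Nfkb2, Ebi3, Syk, Prkcb, Bank1, Stap1, Mybl1, Txndc11, Clec2i and Sapcd1 were named after their values were seen. Positions and promoters come from RefSeq tables of GRCm38.p6, the build called mm10; 151 of the 152 called genes matched and 119 had a promoter. NF-kB and CHR motifs were matched exactly on both strands. Figures were drawn with Matplotlib 3.10.9, and exact tests used SciPy 1.17.1.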

Additional observations from a re-analysis of the deposited data

Results flagged for a closer look

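Of 250 sets of 4 libraries (2 zones of each named gene or library measure), 14 had 1 library apart from the other 3 by Dixon's criterion, which chance does for about 1 in 20 sets. Among the genes, the library apart was the one numbered 4 in 5 LZ and 4 DZ sets. Cxcr4 reached 388 CPM in LZ 4 and 389.7 CPM in DZ 4, above its other libraries. Bcl6 stood at 77.6 CPM in LZ 4, below its others. Library 4 was also apart for Tcf3 (691 CPM in DZ), Trp53i11 (1309 CPM in DZ), Ada (199.9 CPM in DZ), H1f10 (321 CPM in LZ), Gapdh (422 CPM in LZ), Bcl11a (261 CPM in LZ) and the summed T cell markers (268 CPM in DZ). Other libraries were apart for Foxo1 (132 CPM in DZ 2), Pdxk (11.8 CPM in DZ 1), Palm (16.8 CPM in LZ 3) and H1f10 (394 CPM in DZ 3). Of these genes H1f10, Ada, Bcl11a, Pdxk, Palm and Trp53i11 are among the 152, and their zones did not overlap.

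For Cacna1i the zone difference under isotype minus that after anti-CD40 was 4.22 on the log2 scale (edgeR adjusted p = 0.0388), the 1 gene called for such a difference in the main fit. Under isotype Cacna1i averaged 24.1 ± 4.82 CPM in LZ cells and 43.5 ± 5.66 CPM in DZ cells (SD, n = 4 each), and every LZ library lay below every DZ library.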

How the results depend on the processing

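None of the 152 called genes changed direction in any fit that was run. Against 152 genes, DESeq2 called 235 (151 shared with the 152 in direction), the 8 isotype libraries alone gave 101, the 6 isotype libraries numbered 1 to 3 gave 369, and a fold threshold of 1.5 left 25. RLE and upper quartile factors, limma-voom, both filters, thinning and leaving out all libraries numbered 4 gave 109 to 212. Leaving out 1 isotype library gave 72 to 151. For the zone difference after anti-CD40 (786 genes) leaving out 1 library gave 480 to 943, and upper quartile factors gave 341 higher and 472 lower genes, against 419 and 367. For the difference between both zone contrasts (1 gene) upper quartile factors gave 2, DESeq2 38, leaving out the libraries numbered 4 gave 0, and leaving out single libraries 0 to 2. Deviations of LZ and DZ libraries of the same number correlated at 0.357, 0.316, 0.0656 and 0.657 across genes. LZ 1 correlated best with DZ 3, so the numbers were not taken to pair the libraries. LZ 4 correlated at -0.356, -0.328 and -0.465 with DZ 1, 2 and 3, so the shift of number 4 was common to both zones. The main fit has no term for that shift, which stays in its spread. With a replicate block 433 genes were called under isotype, 1533 after anti-CD40 and 107 for the difference, and 396 with a replicate block in the 8 isotype libraries alone, the 152 all being among the 433. The log2 fold change of Bcl6 ranged from -0.50 to 0.049 when 1 isotype library was left out, and was 0.049 without LZ 4. Among values of single genes under these settings, 1878 kept their direction and side of the threshold, 30 passed it newly, 312 no longer passed it and 1 reversed. The cause of these changes was not tested, and fewer libraries or counts enter several of the fits. The medians that changed sign under some setting all lay between -0.09 and 0.09, apart from that of the 3 T cell markers (0.40). The shallow LZ libraries limit genes of a few CPM, where 1 UMI is 1 CPM or more.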

Other observations

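Some further called genes outside the lists were picked after their values were seen, so no group of genes is described by them. Of those higher in LZ cells, 4 host small nucleolar RNAs. Such genes were not tested as a group, and of 12 tested genes named Snhg with a number 1 was called and 10 lay above 0. Gas5 had 717, 571, 455 and 871 CPM in the LZ libraries, against 348, 322, 358 and 437 CPM in the DZ libraries (log2 fold change 0.84 ± 0.18 SE, edgeR adjusted p = 0.0137). Zfas1 had 512, 503, 382 and 594 CPM in the LZ libraries, against 281, 304, 301 and 314 CPM in the DZ libraries (log2 fold change 0.73 ± 0.15 SE, edgeR adjusted p = 0.0126). Snhg15 averaged 106 ± 22.5 CPM in LZ cells and 50.2 ± 7.51 CPM in DZ cells (SD, n = 4 each, log2 fold change 1.08 ± 0.23 SE, edgeR adjusted p = 0.0162). Epb41l4aos averaged 110.1 ± 25.9 CPM in LZ cells and 67.7 ± 3.3 CPM in DZ cells (SD, n = 4 each, log2 fold change 0.70 ± 0.18 SE, edgeR adjusted p = 0.0456). All 4 were called after anti-CD40 as well, at 0.57, 0.79, 1.54 and 0.93 on the log2 scale. The call of Gas5 ended without LZ 1 or DZ 1, 2 or 3 (adjusted p up to 0.0663). That of Zfas1 ended without DZ 1 or 3 (adjusted p up to 0.0534). The call of Snhg15 ended without LZ 2 or DZ 2 (adjusted p up to 0.067). That of Epb41l4aos ended without LZ 1, 2 or 4 or DZ 1, 2, 3 or 4 (adjusted p up to 0.163).

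Of those lower in LZ cells, 3 encode single enzymes, and other enzymes of nucleotide metabolism were not examined as a group. Ada, adenosine deaminase, had 106, 102, 169.7 and 74.1 CPM in the LZ libraries, against 316, 325, 333 and 199.9 CPM in the DZ libraries (log2 fold change -1.38 ± 0.26 SE, edgeR adjusted p = 0.00651). Cmpk1, a kinase of pyrimidine nucleotides, had 175, 189, 158 and 159 CPM in the LZ libraries, against 387, 424, 315 and 329 CPM in the DZ libraries (log2 fold change -1.09 ± 0.23 SE, edgeR adjusted p = 0.0136), and its call ended without DZ 2 (adjusted p up to 0.0543). Gmpr, GMP reductase, had 2.69, 0, 5.59 and 0 CPM in the LZ libraries, against 20.1, 11.1, 21.03 and 13.8 CPM in the DZ libraries (log2 fold change -2.96 ± 0.73 SE, edgeR adjusted p = 0.0364), so its fold rests on a few UMI in LZ cells and its call ended without LZ 1, 2 or 4 or DZ 1, 2 or 3 (adjusted p up to 0.122). Pkig, which lies 413 bases from Ada on chromosome 2, was called lower as well.

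Chromatin genes outside the list were called in both directions. The linker histone H1f10 averaged 212 ± 72.9 CPM in LZ cells and 478 ± 56.9 CPM in DZ cells (SD, n = 4 each, log2 fold change -1.18 ± 0.20 SE, edgeR adjusted p = 0.00278). The core histone H2bc4 averaged 21.4 ± 5.01 CPM in LZ cells and 53.2 ± 11.1 CPM in DZ cells (SD, n = 4 each, log2 fold change -1.296 ± 0.25 SE, edgeR adjusted p = 0.00777), with reads that copies of histone genes may share. Mbd2, a reader of methylated DNA, had 343, 393, 453 and 329.8 CPM in the LZ libraries, against 701, 724, 782 and 714 CPM in the DZ libraries (log2 fold change -0.94 ± 0.16 SE, edgeR adjusted p = 0.00221). Higher in LZ cells were Jarid2, a partner of the Polycomb complex PRC2, at 22.1 ± 4.99 CPM in LZ cells and 9.11 ± 1.76 CPM in DZ cells (SD, n = 4 each, log2 fold change 1.28 ± 0.31 SE, edgeR adjusted p = 0.0325), and Bcl11a, a transcriptional repressor, at 219.9 ± 27.5 CPM in LZ cells and 132 ± 21.4 CPM in DZ cells (SD, n = 4 each, log2 fold change 0.73 ± 0.17 SE, edgeR adjusted p = 0.0248). The call of Jarid2 ended without LZ 1, 2 or 4 or DZ 1, 2 or 3 (adjusted p up to 0.13). That of Bcl11a ended without LZ 1, 2 or 4 or DZ 2, 3 or 4 (adjusted p up to 0.114).

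Gapdh had 13.4, 22.3, 14.9 and 422 CPM in the LZ libraries, against 1190.4, 1238, 18.03 and 13.8 CPM in the DZ libraries (log2 fold change -2.41 ± 1.71 SE, edgeR adjusted p = 0.667). It was far higher in DZ 1 and 2 and in LZ 4 than in the other libraries, and followed neither zone nor library number. The gene has many processed pseudogenes, and how the authors' counting divided their reads is not given in the sources used here. Gh, the growth hormone gene next to Cd79b on chromosome 11, was called lower in LZ cells with 30.9, 30.2, 44.7 and 61.7 CPM in the LZ libraries, against 72.7, 87.1, 71.1 and 85.5 CPM in the DZ libraries (log2 fold change -0.93 ± 0.22 SE, edgeR adjusted p = 0.0323), and its call ended without LZ 1, 2 or 3 or DZ 1, 2, 3 or 4 (adjusted p up to 0.164).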
